A study of Homo sapiens with 12 samples.

Results

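The genes described here are 32 genes of the endoplasmic reticulum (ER) folding and export machinery and of the response that controls it, among the 25528 rows of an RNA-seq table from HT-29 cells. They were chosen by symbol from a list of ER chaperones, folding enzymes, stress sensors, degradation factors and export proteins, and all 32 symbols were found in the table. HT-29 is an established human colon adenocarcinoma line, labelled as an APC mutant, so every group, controls included, carries mutant APC. The study asked how further activation of WNT signalling changes expression. All cells were infected with lentivirus. One pair of groups carried an open reading frame, GFP as the control or CTNNB1 (the gene of beta-catenin), and was collected 2 days after infection. The other pair carried a hairpin, the control shNT1 or shAPC against APC, and was collected 1 day after 2 µM doxycycline was added. Each of the 4 groups had 3 libraries, and the labels do not say whether replicates were separate cultures or infections. The p-values therefore measure the spread between these libraries, which may be technical.

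As background, secreted and membrane proteins enter the ER through the SEC61 translocon. They are folded there by Hsp70 and Hsp90 chaperones, by lectin chaperones that hold glycoproteins and by disulfide isomerases, and they leave in vesicles with a COPII coat. Proteins that do not fold are returned to the cytosol and degraded. When unfolded proteins build up, the membrane sensors IRE1 (genes ERN1 and ERN2), ATF6 and PERK raise the capacity of the system. IRE1 splices the mRNA of XBP1, a transcription factor for chaperone and degradation genes, and ATF6 is cut in the Golgi to release another. CREB3L1 and CREB3L2 are relatives of ATF6 that drive secretory genes. ERN2 is the form of IRE1 found in mucus-secreting epithelium of the gut and airway. Gene-level abundance does not show XBP1 splicing or ATF6 cleavage.

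The promoters of several of these genes carry the DNA elements through which the response acts, and a few are shown because the results turn on their genes. Promoter windows from RefSeq (GRCh38.p14), 250 bases before to 50 after each annotated start, were given for 29 of the 32 genes. They were searched on both strands for the ER stress element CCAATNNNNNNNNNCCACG, for ER stress element II (ATTGG, any base, CCACG) and for the XBP1 and ATF6 element TGACGTGG. The first was found in 7 of the 29 genes (HSPA5, HSP90B1, CALR, CANX, PDIA6, CRELD2 and XBP1), against 0.0916% of the 27305 genes with a window. Element II was found in 3 (HYOU1, SDF2L1 and HERPUD1), against 0.0696%, and TGACGTGG in 2 (HYOU1 and SSR3), against 0.927%. In HYOU1 the TGACGTGG match overlaps 1 of the element II matches. At least 1 of the 3 was present in 11 of the 29 genes and in 1.08% of all genes. A match is a description of the letters only. The 4 sequences below are the 250 bases before the start, 5′ to 3′ in the direction of transcription, with matches in capitals. HSPA5 (chr9:125241344-125241593 on the minus strand) has the first element 66 to 48 bases before its start, and HERPUD1 (chr16:56931892-56932141 on the plus strand) has element II 117 to 107 bases before its start. DNAJB9 (chr7:108569624-108569873 on the plus strand) and CREB3L1 (chr11:46294909-46295158 on the plus strand), the genes with the largest rise and the largest fall described below, have no match in their windows. By the gene models of GENCODE v29, however, CREB3L1 begins upstream of its window, at chr11:46277661. The window thus lies inside that gene model, and the bases before its start were not searched.
HSPA5: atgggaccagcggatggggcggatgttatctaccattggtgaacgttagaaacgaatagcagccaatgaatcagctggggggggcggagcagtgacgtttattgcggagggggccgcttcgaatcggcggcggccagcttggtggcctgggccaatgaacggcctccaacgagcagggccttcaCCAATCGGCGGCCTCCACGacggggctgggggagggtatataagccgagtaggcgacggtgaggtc
HERPUD1: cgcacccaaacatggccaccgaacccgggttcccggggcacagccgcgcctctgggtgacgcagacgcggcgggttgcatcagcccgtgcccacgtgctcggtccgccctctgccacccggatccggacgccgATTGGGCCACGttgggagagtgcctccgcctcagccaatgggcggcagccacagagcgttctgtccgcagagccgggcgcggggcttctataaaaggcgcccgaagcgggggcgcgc
DNAJB9: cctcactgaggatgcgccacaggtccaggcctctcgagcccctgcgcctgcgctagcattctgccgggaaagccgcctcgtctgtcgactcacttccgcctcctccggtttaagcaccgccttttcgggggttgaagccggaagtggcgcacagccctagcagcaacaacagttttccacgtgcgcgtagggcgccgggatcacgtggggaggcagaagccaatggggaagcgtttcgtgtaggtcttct
CREB3L1: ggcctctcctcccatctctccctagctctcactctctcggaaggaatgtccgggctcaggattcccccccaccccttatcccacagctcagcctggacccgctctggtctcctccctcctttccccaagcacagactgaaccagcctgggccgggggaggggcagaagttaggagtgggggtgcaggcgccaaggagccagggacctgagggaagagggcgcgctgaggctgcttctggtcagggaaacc

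Abundance is given as TPM, which scales every library to the same total and corrects for transcript length, so levels of different genes can be compared but read depth is not kept and is unknown. Together the 32 genes took 1.06 ± 0.0087% of the TPM in GFP (SD, n = 3, as for all values with ± below), 1.02 ± 0.025% in CTNNB1, 0.989 ± 0.046% in shNT1 and 0.89 ± 0.032% in shAPC. The 8 most abundant were the chaperones HSPA5, HSP90B1, CALR and CANX and the disulfide isomerases PDIA3, PDIA4, PDIA6 and P4HB. HSP90B1 led at 1522 ± 23.3 TPM in GFP. The next 8 had means of at least 100 TPM over the 12 libraries (HYOU1, DNAJB11, MANF, XBP1, CREB3L1, SEC61A1, SEC61B and SSR3). Then came 13 between 10 and 100 TPM, and the sensors ERN1 and ERN2 lay between 1 and 10 TPM. EDEM2 was the lowest, at 0.367 to 0.833 TPM in the 12 libraries. The table has a separate row for the readthrough transcript MMP24-AS1-EDEM2, at group means of 0.379 to 0.965 TPM, and how reads shared with EDEM2 were assigned is not given in the sources used here. The highest group mean of a gene was 1.05 to 2.24 times its lowest, with a median ratio of 1.21. The shAPC group had the lowest mean for 19 of the 32 genes and GFP the highest for 14. The same counts were not made over all genes, so they are not shown to be particular to these.

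**Figure D1:**
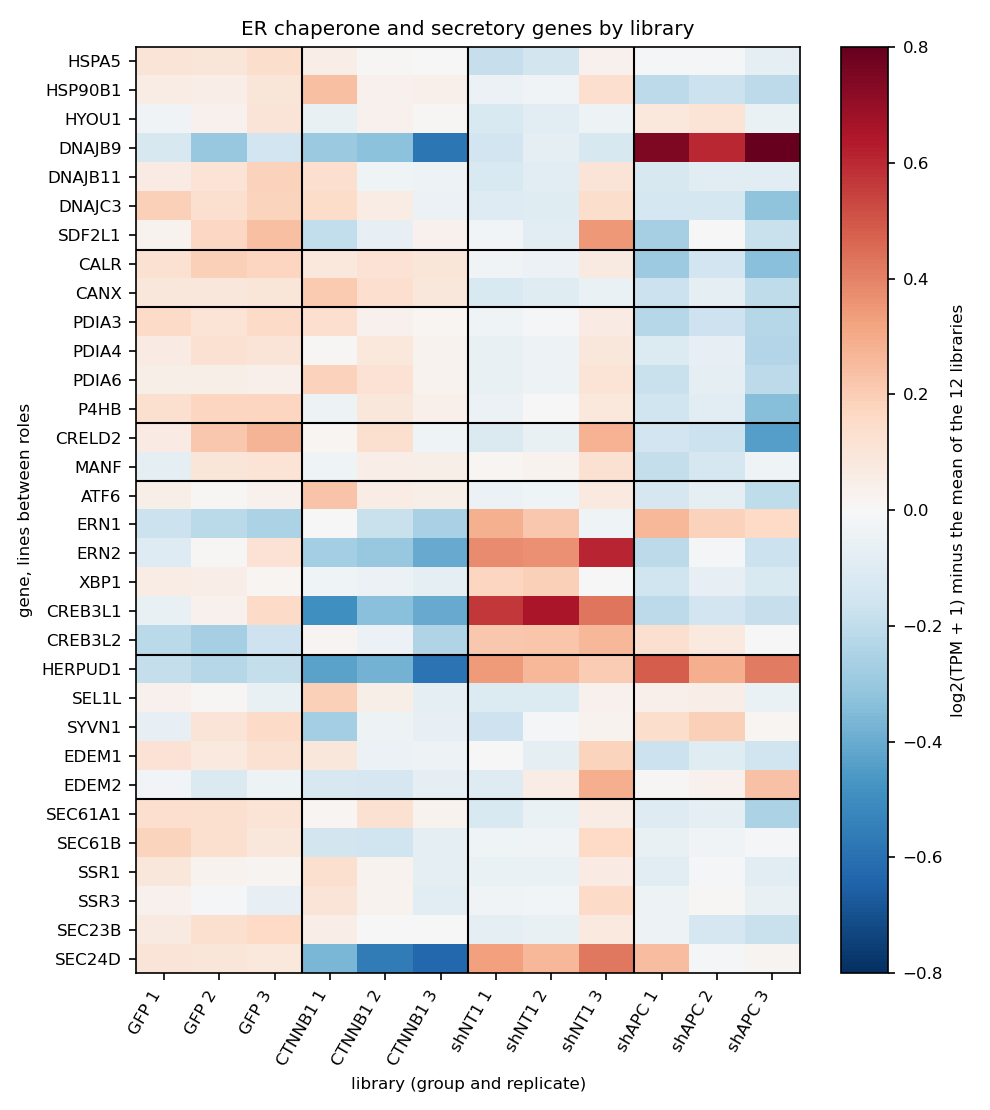
Each row is a gene, each column a library, and colour gives log2(TPM + 1) minus the gene's mean over the 12 libraries, with horizontal lines between functional groups. DNAJB9 stands out as high in the 3 shAPC libraries, and CREB3L1 and ERN2 as high in the 3 shNT1 libraries, while SEC24D is low in the 3 CTNNB1 libraries.

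The labels were checked first. APC, the hairpin's target, had a mean of 5.99 ± 0.56 TPM in shAPC against 16.4 ± 0.8 TPM in shNT1 (limma adjusted p = 6.14e-06). CTNNB1 had a mean of 160 ± 4.2 TPM in the group labelled CTNNB1 against 146 ± 2.9 TPM in GFP, a log2 difference of 0.13 ± 0.04 (SE) that missed the threshold (limma adjusted p = 0.0587). Whether reads of the introduced open reading frame are counted in that row is not given in the sources used here, so the row does not show forced expression, and the group is called CTNNB1 by its label. Of 12 colonic epithelial markers 8 had a mean of at least 1 TPM in every group, and the list summed to 9212 to 12890 TPM. GPA33 had a mean of 0.906 TPM in CTNNB1 and of 1.13 to 3.08 TPM in the other groups, and CDX1, CDX2 and CDH17 stayed under 1 TPM in every library. Fibroblast markers summed to at most 1.6 TPM and endothelial markers to at most 0.478 TPM. The leukocyte list was carried by CD68 (7.52 TPM in shAPC to 27.0 TPM in GFP), with CD3E and MS4A1 at 0 and PTPRC at most 0.0217 TPM. Libraries had 14756 to 16186 genes above 0, fewest in shNT1 replicate 3. That library was the highest of its group for 27 of the 32 genes, so results that use shNT1 are also given without it. Next came shAPC replicate 2 with 21 and CTNNB1 replicate 1 with 19. How often a library was highest over all genes was not counted.

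The libraries labelled CTNNB1 were compared with GFP, a comparison the study made to raise WNT signalling. Of the 31 genes that could be tested (EDEM2 was below the minimum mean of 1 TPM), 5 were lower and 0 higher in CTNNB1. The 5 were the COPII coat subunit SEC24D, the transcription factor CREB3L1, the sensor ERN2, the degradation factor HERPUD1 and the translocon subunit SEC61B. A gene was called at a limma adjusted p under 0.05, over all genes tested. By that rule 23.5% of the 11624 genes tested were called in either direction, 16.3% higher and 7.16% lower, against 5 of 31 here. The median log2 change of the 31 was -0.09, and that of all genes tested 0.06. In bulk RNA, fewer cells that express a gene and less RNA per cell cannot be told apart.

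Among export genes, SEC24D had the largest change. It encodes a cargo-binding subunit of the COPII coat. It was at 20.3, 20.2 and 20.0 TPM in the 3 GFP libraries and at 14.4, 12.4 and 11.8 TPM in the 3 CTNNB1 libraries. The groups did not overlap, and the GFP libraries lay within 0.3 TPM of each other. The log2 change was -0.61 ± 0.07 (SE, limma adjusted p = 0.000402). SEC61B, the small beta subunit of the translocon, fell from 458 ± 13.7 to 382 ± 11.9 TPM (log2 -0.26, limma adjusted p = 0.00254). The other translocon and coat genes were not called: SEC61A1, the channel itself, SSR1 and SSR3, subunits of the translocon-associated complex, and the coat subunit SEC23B had log2 changes between -0.10 and 0.03. Of these, SEC23B was called lower with median-ratio scaling (described below).

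The sensors and factors were split. CREB3L1 was at 92.95, 99.4 and 108 TPM in GFP and at 68.5, 76.6 and 73.1 TPM in CTNNB1. All 3 CTNNB1 libraries lay below the lowest GFP library, and the log2 change was -0.45 ± 0.07 (SE, limma adjusted p = 0.00108). ERN2 was at 7.97, 8.69 and 9.44 TPM in GFP and at 6.97, 6.81 and 6.26 TPM in CTNNB1, again without overlap. Its log2 change was -0.34 ± 0.08 (SE, limma adjusted p = 0.0163), and it was no longer called without GFP replicate 2 or GFP replicate 3 (adjusted p up to 0.0726). XBP1 was at 435, 433 and 422 TPM in GFP and at 407, 404 and 395 TPM in CTNNB1. These did not overlap, yet the log2 change of -0.10 ± 0.04 (SE) did not pass (limma adjusted p = 0.0974). XBP1 was called lower with median-ratio scaling (described below) and without CTNNB1 replicate 1 (limma adjusted p = 0.0209 and 0.0417). The ubiquitous sensor ERN1 was at 3.84, 3.68 and 3.57 TPM in GFP and at 4.44, 3.81 and 3.54 TPM in CTNNB1, with overlapping groups. ATF6 was at 32.5, 31.7 and 32.1 TPM in GFP and at 37.0, 32.7 and 32.4 TPM in CTNNB1. CREB3L2 was at 10.6, 10.3 and 11.1 TPM in GFP and at 12.8, 12.1 and 10.5 TPM in CTNNB1. For these 3 genes the limma adjusted p lay between 0.275 and 0.633, and in each CTNNB1 replicate 1 was the highest of the 6 libraries.

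No chaperone or disulfide isomerase was called in the CTNNB1 arm in the main fit, which had no replicate term. Several were called under other settings. With replicate number added to the fit (the replicate block), SDF2L1 and P4HB were called lower. Median-ratio scaling called HSPA5, DNAJB9, DNAJB11, DNAJC3, SDF2L1, PDIA3 and P4HB lower, and leaving out CTNNB1 replicate 1 called HSPA5, DNAJB9, DNAJB11, DNAJC3 and PDIA3 lower. HSPA5 encodes BiP, the main Hsp70 of the ER, and is often used as the readout of ER stress. It was at 609, 606 and 626 TPM in GFP and at 588, 571 and 569 TPM in CTNNB1. Every CTNNB1 library lay below every GFP library, by a log2 change of -0.09 ± 0.04 (SE) that did not pass (limma adjusted p = 0.117). The adjusted p was 0.0167 with median-ratio scaling and 0.0387 without CTNNB1 replicate 1. The other members of the Hsp70 and Hsp90 system are the Hsp90 HSP90B1, the Hsp70-like HYOU1, the BiP co-chaperones DNAJB9, DNAJB11 and DNAJC3, and SDF2L1, a partner of DNAJB11. Their log2 changes ran from -0.22 (SDF2L1) to 0.03 (HSP90B1). The lectin chaperones CALR and CANX had changes of -0.06 and 0.05, and the disulfide isomerases PDIA3, PDIA4, PDIA6 and P4HB changes from -0.13 to 0.06. CRELD2 and MANF, small secreted proteins known as targets of the response, had changes of -0.15 and -0.02. In the degradation group, HERPUD1, a membrane scaffold of the ubiquitin ligase complex, fell from 55.4 ± 0.82 to 46.0 ± 3.6 TPM. Its log2 change was -0.27 ± 0.06 (SE, limma adjusted p = 0.0137), a call lost without GFP replicate 1 or GFP replicate 3 (up to 0.0555). The ligase SYVN1, its adaptor SEL1L and the mannosidase-like EDEM1 had changes from -0.19 to 0.06 and were not called in the main fit. EDEM1 was called lower with median-ratio scaling, with quantile normalization and without CTNNB1 replicate 1, and SYVN1 with the replicate block.

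How many genes were called here depended on scaling and on single libraries. With median-ratio scaling, which sets the typical gene to no change, 15 of the 31 were lower and 0 higher, and the share of higher genes among all calls went from 69.5% to 49.4% (52.9% with quantile normalization, with 7 lower and 0 higher). Without CTNNB1 replicate 1, 12 were lower, and without GFP replicate 3, 3 were. SEC24D, CREB3L1 and SEC61B were called under all alternatives run and without any 1 library.

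Knockdown of APC, the study's other way to raise WNT signalling, was compared with shNT1. Here 1 of the 31 genes tested, DNAJB9, was higher in shAPC and 7 were lower. The 7 were the factors CREB3L1 and XBP1, the sensor ERN2, the chaperones CALR and HSP90B1, the isomerase PDIA3 and the coat subunit SEC24D. Over the 11834 genes tested, 22.1% were called, 7.24% higher and 14.9% lower, against 8 of 31 here. The median log2 change was -0.14 for the 31 and -0.04 for all genes tested. Without shNT1 replicate 3, 7 were called, with SEC24D lost.

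DNAJB9 (ERdj4), a J-domain co-chaperone of BiP known as a target of XBP1 and a partner of IRE1, had the largest change of all members. It was at 18.1, 19.3 and 18.5 TPM in shNT1 and at 34.7, 31.25 and 35.9 TPM in shAPC. Every shAPC library lay far above every shNT1 library, and the mean was 82.4% higher. The log2 change was 0.83 ± 0.07 (SE, limma adjusted p = 3.31e-05), and the call held under every alternative and without any 1 library, the hairpin control replicate 3 included. By the gene models of GENCODE v29, 6.45% of its exon bases overlap genes on the opposite strand (PNPLA8 and THAP5), and strandedness of the counting is not given in the sources used here.

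No other chaperone gene was called higher, although HYOU1 was under median-ratio scaling and quantile normalization. HSPA5 was at 499, 512 and 580 TPM in shNT1 and at 560, 560 and 540 TPM in shAPC. The groups overlapped through shNT1 replicate 3, which was the highest of the 6, and the log2 change of 0.06 ± 0.06 (SE) did not pass (limma adjusted p = 0.491). Without that library it was 0.13 (limma adjusted p = 0.0924). HSP90B1 fell from 1473 ± 104 to 1266 ± 18.6 TPM (log2 -0.22, limma adjusted p = 0.0261). CALR, the soluble lectin chaperone, fell from 1248 ± 57.1 to 1044 ± 69.4 TPM (log2 -0.26, adjusted p = 0.0146). PDIA3, the isomerase that works with it on glycoproteins, fell from 1067 ± 37.8 to 919 ± 24.4 TPM (log2 -0.21, adjusted p = 0.0139). These 3 calls were near the threshold. Without shAPC replicate 3 the limma adjusted p became 0.0815 for HSP90B1, 0.063 for CALR and 0.054 for PDIA3, and HSP90B1 was also not called under median-ratio scaling or quantile normalization. For PDIA3, 18.9% of exon bases overlap genes on the other strand. The remaining folding genes were not called, with log2 changes from -0.29 (CRELD2) to 0.13 (HYOU1). Among them, P4HB and MANF lay just past the threshold (limma adjusted p = 0.0511 and 0.0525).

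CREB3L1 had the largest fall of all members. It was at 144, 153 and 131 TPM in shNT1 and at 83.6, 86.8 and 85.2 TPM in shAPC. The shAPC libraries lay within a few TPM of each other and far below the lowest shNT1 library, and the log2 change was -0.73 ± 0.06 (SE, limma adjusted p = 4.43e-05). ERN2 was at 11.5, 11.4 and 13.7 TPM in shNT1 and at 7.31, 8.52 and 7.53 TPM in shAPC. It did not overlap either, and the log2 change was -0.58 ± 0.09 (SE, limma adjusted p = 0.0016). Both calls held under every alternative and without any 1 library. XBP1 was at 470, 477 and 419 TPM in shNT1 and at 374, 399 and 383 TPM in shAPC. The groups did not overlap, but shNT1 replicate 3 lay nearer to shAPC than its 2 partners did. The log2 change was -0.24 ± 0.06 (SE, limma adjusted p = 0.0187), and the call was lost under median-ratio scaling and without any 1 of 4 libraries (shNT1 replicates 1 and 2, shAPC replicates 1 and 3).

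The other sensors and factors did not pass. ATF6 was at 30.4, 30.7 and 33.3 TPM in shNT1 and at 28.6, 29.65 and 27.1 TPM in shAPC, and did not overlap (log2 -0.14, limma adjusted p = 0.136). CREB3L2 was at 14.8, 14.8 and 15.3 TPM in shNT1 and at 13.8, 13.3 and 12.5 TPM in shAPC, also without overlap (log2 -0.17, limma adjusted p = 0.0921). ERN1 was at 5.62, 5.30 and 4.30 TPM in shNT1 and at 5.54, 5.17 and 5.07 TPM in shAPC, with overlapping groups. Of the IRE1 genes ERN2 was thus called and ERN1 was not, and the difference between those changes was not tested.

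SEC24D was at 23.9, 22.8 and 25.6 TPM in shNT1 and at 22.5, 18.7 and 19.1 TPM in shAPC. The groups came close at shAPC replicate 1, and the log2 change was -0.25 ± 0.08 (SE, limma adjusted p = 0.0473), a call that 6 of the 9 alternatives and the omission of any 1 of 5 libraries undid. The remaining translocon and coat genes had log2 changes from -0.10 to -0.05 and were not called. In the degradation group no gene was called: HERPUD1, SYVN1 and SEL1L had changes of 0.13, 0.17 and 0.08, and EDEM1 of -0.18. Scaling shifted the balance of calls in this arm too. With median-ratio scaling 3 genes were higher (DNAJB9, HYOU1 and SYVN1) and 4 lower, with quantile normalization 4 higher and 5 lower, and higher genes were 47.6% and 49.4% of all calls in place of 32.8%. Without shAPC replicate 3, 4 genes were called, and without shAPC replicate 1, 5 were. With 1 fit of all 4 groups 12 were called, 1 higher and 11 lower, adding PDIA6, P4HB, CRELD2 and MANF.

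**Figure D2:**
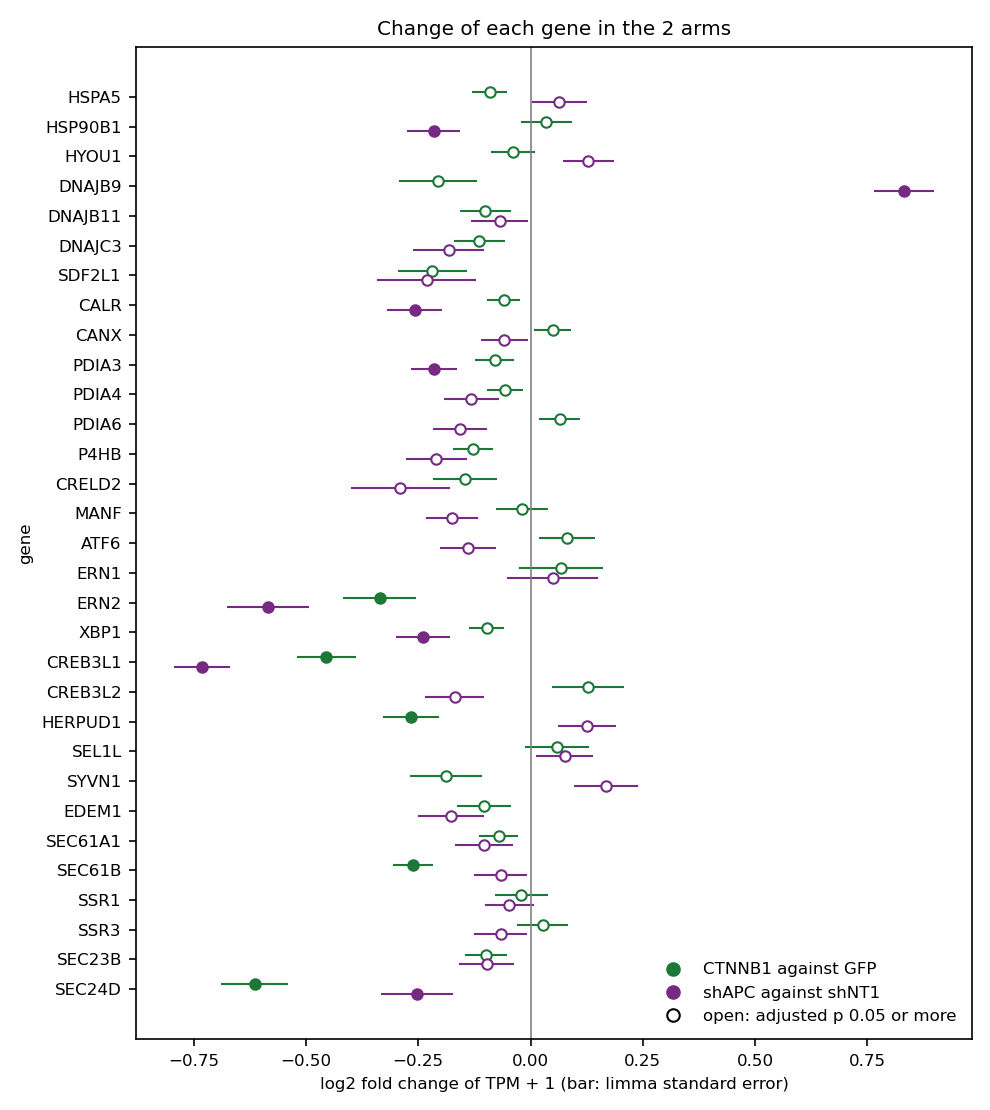
Log2 fold change of TPM + 1 for the 31 genes tested, with limma standard errors as bars, in CTNNB1 against GFP (green) and shAPC against shNT1 (purple); filled points passed an adjusted p of 0.05. CREB3L1, ERN2 and SEC24D are filled and below 0 in both comparisons, and DNAJB9 is at 0.83 in shAPC alone.

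The 2 comparisons use different libraries and can be set side by side. ERN2, CREB3L1 and SEC24D were called lower in both, 0 genes were called higher in both, and 0 were called in opposite directions. Another 2 were called in CTNNB1 alone (HERPUD1 and SEC61B), 5 in shAPC alone (DNAJB9, HSP90B1, CALR, PDIA3 and XBP1) and 21 in neither. Over all genes tested 7.16% were lower in CTNNB1 and 14.9% in shAPC. The share of all genes in each of these joint classes was not counted, so whether the members stand out was not tested. A call in 1 comparison and not in the other does not show a difference, so the difference of the effects was fitted over all 12 libraries. It was called for 4 of 31 genes, all with the CTNNB1 effect below the shAPC effect, where 16.1% of the 11741 genes tested were called, 13.3% higher and 2.76% lower. Of these, DNAJB9 differed by -1.04 ± 0.11 on the log2 scale (SE, limma adjusted p = 8.86e-05). In GFP and CTNNB1 it had been at 18.4, 16.2 and 18.1 TPM against 16.3, 15.9 and 13.2 TPM, with overlapping groups and a change of -0.21 that did not pass. HERPUD1 differed by -0.39 ± 0.09 (limma adjusted p = 0.0121), having fallen in CTNNB1 and been at 77.3 ± 3.8 TPM in shNT1 and 84.5 ± 5.9 TPM in shAPC. SYVN1 differed by -0.36 ± 0.11 (adjusted p = 0.0452), with means of 37.6 ± 3.1 TPM in GFP, 32.9 ± 2.9 TPM in CTNNB1, 34.6 ± 2.5 TPM in shNT1 and 39.0 ± 2.5 TPM in shAPC. Some of its exon bases (8.39%) overlap FAU and MIR6751 on its own strand.

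SEC24D differed by -0.36 ± 0.11 (limma adjusted p = 0.0447). The DNAJB9 call held under every alternative, and that of HERPUD1 was lost only at an adjusted p under 0.01. Those of SYVN1 and SEC24D were lost without any 1 of 7 and any 1 of 9 libraries. CREB3L1 and ERN2, lower in both arms, had differences of 0.28 (95% interval 0.08 to 0.48) and 0.25 (95% interval -0.02 to 0.51) that did not pass (limma adjusted p = 0.0573 and 0.181). The CREB3L1 difference was called with the filter at a mean of at least 5 TPM (limma adjusted p = 0.0455). It was also called without any 1 of GFP replicate 3, CTNNB1 replicate 1 or shNT1 replicate 3. Over all genes the median difference was 0.11 on the log2 scale, and median-ratio scaling moved it to 0.004. The share of calls that were higher then went from 82.8% to 54.9% (56.5% with quantile normalization), with 7 of the 31 genes called, all lower. Without shNT1 replicate 3, 8 were called (6 lower and 2 higher). Without CTNNB1 replicate 3, 6 were called, and 2 were called without any 1 of GFP replicate 2, shNT1 replicate 1, shNT1 replicate 2 or shAPC replicate 1.

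**Figure D3:**
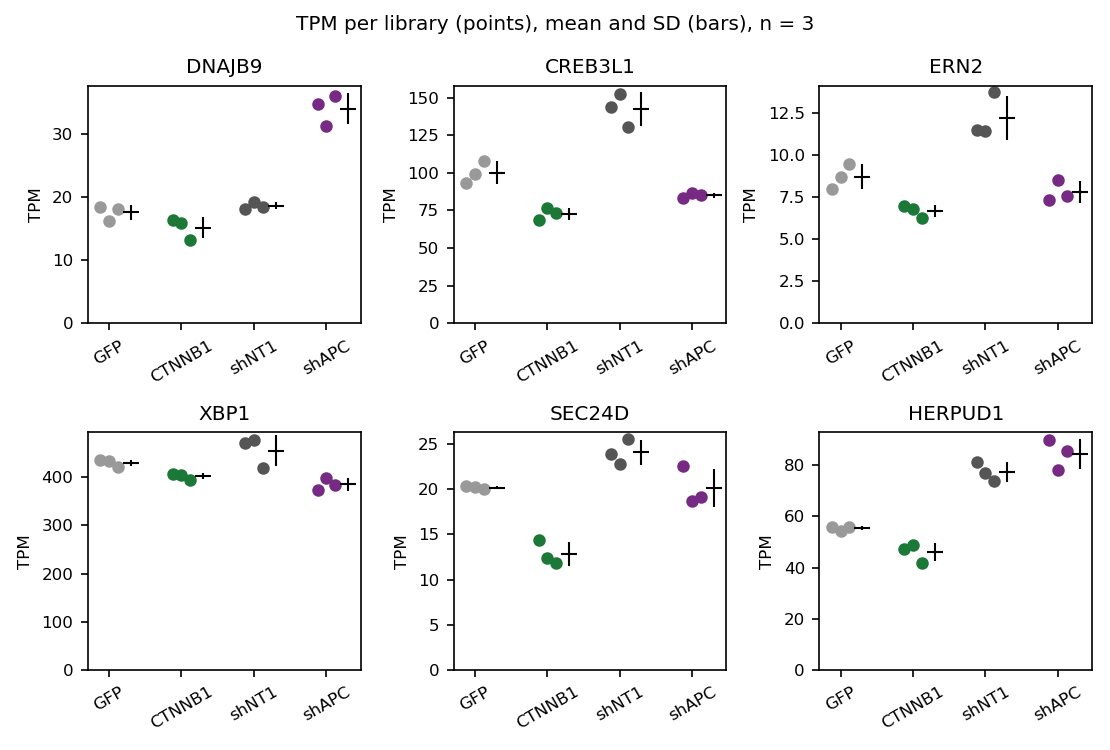
TPM of 6 genes in each library (points), with the mean and SD of each group of 3 as a cross with a bar; each vertical axis starts at 0. The 3 shAPC points of DNAJB9 lie between 31.25 and 35.9 TPM, above all 9 others, and the CTNNB1 points of SEC24D between 11.8 and 14.4 TPM, below all 9 others.

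The 2 control groups differed in these genes as well, in a comparison that shares its libraries with both arms. The GFP and shNT1 libraries differ in vector, time of collection and doxycycline, and these cannot be told apart. Of the 31 genes, 6 were higher in shNT1 and 6 lower, beside 33.1% of the 11659 genes tested, 23.2% higher and 9.92% lower. The higher genes were mostly sensors and factors: CREB3L1 (log2 0.50), CREB3L2 (0.45), ERN2 (0.44) and ERN1 (0.37), with HERPUD1 (0.47) and SEC24D (0.24). The lower genes were abundant folding and translocon genes: HSPA5 (-0.21), CANX (-0.18), SEC61A1 (-0.16), CALR (-0.16), P4HB (-0.15) and PDIA3 (-0.13). For all 12 the limma adjusted p lay between 0.000207 and 0.0343, and for each of them the groups did not overlap. That held for 13 of the 31 genes and for 48.6% of all genes tested. Each arm above is measured from its own control, so that of CREB3L1, for instance, started from 100.1 ± 7.5 TPM in GFP and from 142 ± 11 TPM in shNT1. In shAPC this gene was at 85.2 ± 1.6 TPM and in CTNNB1 at 72.7 ± 4.0 TPM.

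The control comparison moved with single libraries and with scaling. Without shNT1 replicate 3, 24 of the 31 genes were called (7 higher and 17 lower). Without any 1 of GFP replicates 2 and 3 and shNT1 replicates 1 and 2, 6 were, and without GFP replicate 1, 7 were. Median-ratio scaling gave 5 higher and 13 lower and quantile normalization 6 higher and 3 lower, with higher genes at 48.1% and 51.5% of all calls in place of 70.0%. CREB3L1, CREB3L2, ERN2, HERPUD1, SEC24D and CANX kept their call under every alternative and without any 1 library.

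The calls were also counted by promoter match. Among the 11 genes with a match, 0 were higher and 1 was lower in CTNNB1, and 0 were higher and 3 lower in shAPC. Among the 18 without one, of which 17 were tested, 0 were higher and 2 lower in CTNNB1, and 1 was higher and 1 lower in shAPC. The 18 include CREB3L1, whose start in GENCODE v29 was not searched. The 3 genes with no window given (ERN2, PDIA3 and SEC24D) hold 2 of the 5 calls in CTNNB1 and 3 of the 8 in shAPC. Over all genes tested 16.3% were higher and 7.16% lower in CTNNB1, and 7.24% higher and 14.9% lower in shAPC. In shAPC, HERPUD1 and HSPA5, whose elements are shown above, were not called, and DNAJB9, with no exact match in its window, rose. Only exact matches were searched, and whether the response acts on these genes here was not tested.

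The wider pathway was read from 83 further genes in 6 lists, of which 78 were tested. In CTNNB1 4 were higher and 13 lower, and in shAPC 3 were higher and 9 lower, with median log2 changes of -0.05 and -0.07. These are 21.8% and 15.4% of the 78, beside 23.5% and 22.1% of all genes tested. In the PERK branch, the arm of the response that slows translation, 1 of 8 genes was higher and 1 lower in CTNNB1, the stress factor ATF3 (0.39) and the pseudokinase TRIB3 (-0.37). In shAPC 2 were higher and 0 lower. ATF3 went from 5.05 ± 0.83 to 9.69 ± 0.46 TPM (log2 0.83, limma adjusted p = 0.000419), and PPP1R15A, which brings translation back, from 37.4 ± 2.4 to 53.5 ± 6.4 TPM (log2 0.50, adjusted p = 0.00289). Of 7 further factors and proteases, 1 was higher in CTNNB1 (CREB3L4, 0.47) and 0 lower, and in shAPC 0 were called.

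Among 18 further folding enzymes, 1 was higher and 3 lower in CTNNB1, and 1 higher and 4 lower in shAPC. The isomerase AGR2, known for its part in mucin folding in the gut, fell from 1595 ± 32.3 to 1165 ± 73.9 TPM in CTNNB1 (log2 -0.46, limma adjusted p = 0.000224) and from 1938 ± 20.5 to 1474 ± 55.9 TPM in shAPC (log2 -0.39, adjusted p = 0.00056). Its relative AGR3 fell in both as well, by 0.43 on the log2 scale in CTNNB1 and by 1.13 in shAPC, from 64.9 ± 3.4 to 29.2 ± 2.9 TPM. The effects on AGR3 differed between arms (log2 0.70, limma adjusted p = 0.000657), while for AGR2 a difference of -0.06 did not pass (adjusted p = 0.58). Of 15 further degradation genes, 1 was higher and 4 lower in CTNNB1, led by the segregase VCP (-0.52) and its cofactor UFD1 (-0.47), and in shAPC 0 were higher and 1 lower (EDEM3, -0.49). For 20 genes of translocation, signal peptidase and glycan transfer, 0 were higher and 2 lower in CTNNB1, both signal recognition particle receptor subunits (SRPRA, -0.19, and SRPRB, -0.18). In shAPC 0 were higher and 3 lower, led by the signal peptidase subunit SPCS3 (-0.49) and the oligosaccharyltransferase STT3B (-0.27). Of 10 further COPII genes, 0 were higher and 3 lower in CTNNB1, led by SAR1B (-0.26) and SEC13 (-0.24), and 0 were higher and 1 lower in shAPC (SEC24A, -0.23).

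**Figure D4:**
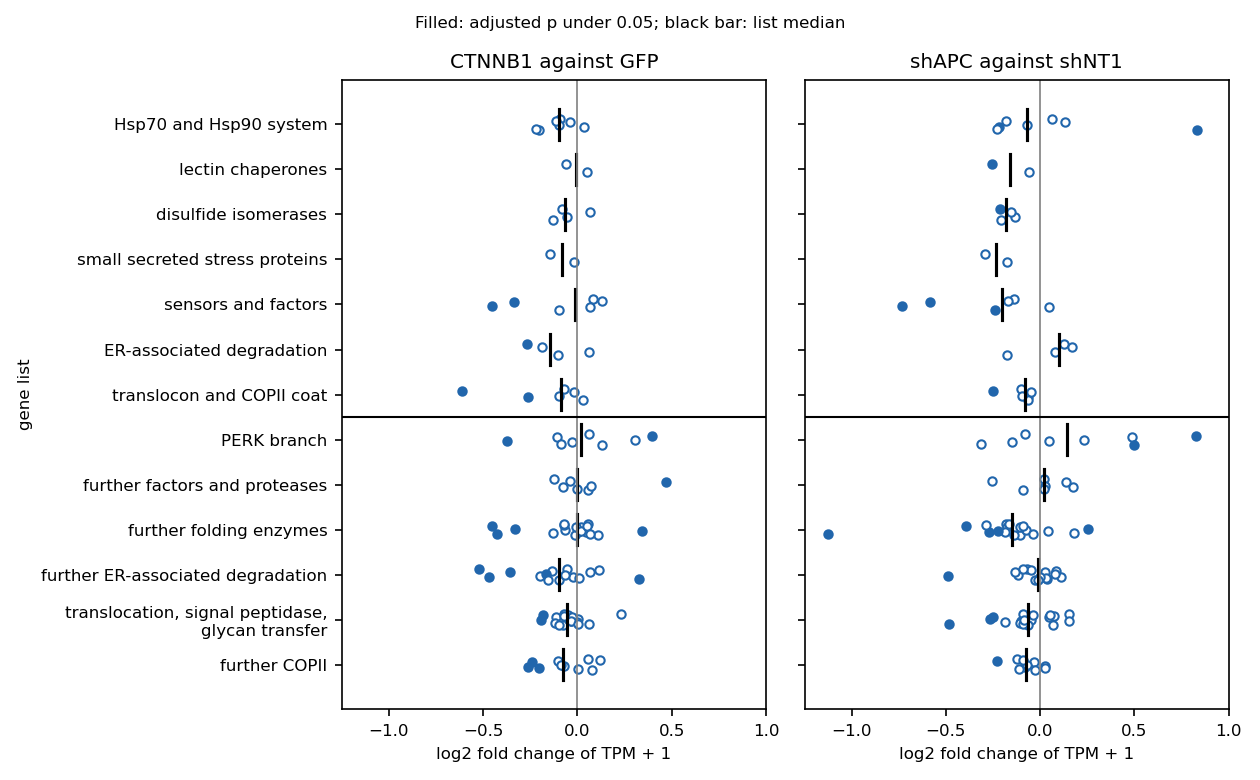
Each point is a gene's log2 fold change of TPM + 1 in CTNNB1 against GFP (left) or shAPC against shNT1 (right), by functional group, with the 7 groups of the 32 genes above the line and the 6 further lists below it; filled points passed an adjusted p of 0.05 and black bars are medians. Most points lie within 0.3 of 0, and the farthest in shAPC are DNAJB9 and ATF3 at 0.83 and AGR3 at -1.13.

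The authors' deposited table for each arm holds log2 fold changes from their own limma fit. The authors' deposited table gives SEC24D -0.73, CREB3L1 -0.53, ERN2 -0.45, HERPUD1 -0.34 and SEC61B -0.34 for CTNNB1 against GFP. It gives HSPA5, not called here, an adjusted p of 0.00237 at a log2 fold change of -0.16, and XBP1 an adjusted p of 0.0148 at -0.17. PDIA3, EDEM1, SEC23B, DNAJC3 and DNAJB11 were not called here either. In the authors' limma fit they are lower in CTNNB1, with adjusted p-values of 0.00477, 0.0108, 0.0108, 0.0252 and 0.0408. For shAPC the authors' deposited table gives DNAJB9 0.90, CREB3L1 -0.70 and ERN2 -0.61, each with an adjusted p under 0.05. XBP1, SEC24D, CALR and HSP90B1, called lower here, have adjusted p-values of 0.242, 0.0955, 0.07 and 0.0628 in the authors' deposited table. Conversely, HYOU1 (log2 0.17) and CREB3L2 (log2 -0.14), not called here, have adjusted p-values of 0.0452 and 0.0184 in the authors' limma fit.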

How the data were processed

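RNA-seq of 12 HT-29 libraries was analysed from a table of TPM (length-corrected abundances scaled to 1 total per library) deposited by the authors, with 1 column per library. Per the submitters' processing notes the tools were STAR 2.7.3a and limma, and the build was hg38. The annotation, the quantification tool and the strandedness are not given in the sources used here, and TPM keeps no depth. The authors also deposited limma tables per arm with log2 fold changes and p-values, per the file headers.

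Here, log2(TPM + 1) was fitted with limma 3.58.1 in R 4.3.3 with a mean-variance trend. Genes with a mean of at least 1 TPM over the libraries of a fit were kept, and Benjamini-Hochberg adjustment ran over all of them, with calls at an adjusted p under 0.05. Adding 1 understates changes of low genes. Each arm and the controls were fitted on their own 6 libraries and the difference between arms on all 12. The scripts were tested on simulated data. Every member was named, with values in every library for members called in an arm with a log2 change of at least 0.3 in size, for HSPA5 and for the sensors and factors. The further lists were named by at most 2 called genes per list and arm. The members and lists were chosen with earlier results of these data known. Alternatives were the replicate block, a pseudocount of 0.1, no filter, a mean of at least 5 TPM, median-ratio scaling, quantile normalization, no trend, 1 fit of all groups, an adjusted p under 0.01 and each library left out. Motifs were searched in RefSeq promoter windows, and exon overlaps come from GENCODE v29 (GRCh38).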

Additional observations from a re-analysis of the deposited data

Results flagged for a closer look

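When the change in shAPC was subtracted from that in CTNNB1, 4 of the 31 genes tested differed between the arms by the interaction test. Over all genes tested 16.1% were called, 13.3% higher and 2.76% lower. On the log2 scale the difference was -1.04 for DNAJB9, -0.39 for HERPUD1, -0.36 for SYVN1 and -0.36 for SEC24D, with limma adjusted p-values of 8.86e-05, 0.0121, 0.0452 and 0.0447 over 3 libraries a group. The SYVN1 and SEC24D calls were lost without the filter, without the variance trend and on leaving out any of several single libraries. DNAJB9 was higher in 3 of 3 shAPC libraries than in any shNT1 library, and SEC24D was lower in 3 of 3 CTNNB1 libraries than in any GFP library. Groups were likewise apart for 40.9% of all genes tested in shAPC and for 43.2% in CTNNB1. The arms differ in vector, time of collection and doxycycline, which cannot be told apart from the perturbation here.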

How the results depend on the processing

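No member value that had been called changed sign under an alternative. Among the genes described, 5 called in CTNNB1 became 15 with median-ratio scaling, 8 with the replicate block and 3 at an adjusted p under 0.01. The 8 called in shAPC became 4 without a filter, 3 at 0.01, 10 at a mean of at least 5 TPM and 12 with 1 fit of all groups, the 12 called between the controls 6 without a filter and 6 at 0.01, and the 4 called in the difference between the arms 2 without a filter, 2 without the variance trend, 7 with median-ratio scaling and 1 at 0.01. Over all genes the calls at 0.01 were 1253 in CTNNB1, 1151 in shAPC, 1897 between the controls and 628 in the difference. Leaving out 1 library gave 3 to 12 of the described genes and 1499 to 3190 of all genes in CTNNB1, 4 to 7 and 1484 to 2252 in shAPC, 6 to 24 and 2387 to 4480 between the controls, and 2 to 8 and 995 to 2143 in the difference. The other recomputed values were on single genes, list medians and the counts of described genes called higher or lower. Of these values, 1892 kept their direction and side of the threshold or moved by less than the spread, 115 lost a call, 76 gained one and 124 moved further. With fewer libraries per group the tests have fewer degrees of freedom, and otherwise the cause was not tested. Depth is unknown, so no detection limit is given.

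The labels do not say what the shared replicate numbers stand for, and not every same-numbered pair correlated at over 0.1, so the numbers were not taken to pair the libraries. Same-numbered deviations from the group means correlated at 0.21, 0.08 and 0.12 in the CTNNB1 arm (5 of 6 libraries correlated best with their own number, a hint of pairing from the data alone), at -0.14, 0.0025 and -0.21 in the shAPC arm (1 of 6) and below 0 between the controls (0 of 6). With the replicate block, 8 of the described genes (2895 of all genes) were called in CTNNB1, with SDF2L1, P4HB and SYVN1 added, 7 (1767) in shAPC, 14 (3518) between the controls and 4 (1752) in the difference.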
